A study of Mus musculus with 6 samples.

Results

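Parathyroid, thyroid C cell and dense-core granule genes were followed across 6 mouse thyroid lobes. They are Pth, Casr, Chga, Chgb, Scg2, Scg3, Scg5, Pcsk1, Calcb and Ret, chosen by name and known role with earlier results of these arrays in view, and all 10 were found among the 19505 gene symbols of the array. Each had 1 probe set. The arrays came from 3 Foxe1flox/flox/Cre mice, in which tamoxifen-activated Cre recombinase acts on a floxed Foxe1 gene, and from 3 Cre control mice that carry Cre alone. Mice of both groups had a C57BL/6J background, were 6 to 8 weeks old and received tamoxifen at 0.05 g/kg into the abdomen daily for 5 days. Thyroid was collected 2 weeks later, and 1 frozen lobe per animal gave 1 array. The sources used here do not give the promoter that drives Cre or the sex of the animals. The floxed mice are called knockouts below, and arrays are named by genotype and replicate number.

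Values are log2 RMA levels of a probe set, so a difference of 1 is a doubling. Over the 22206 probe sets they lay between 1.96 and 19.93, with array medians between 5.62 and 5.69 and lower quartiles between 3.49 and 3.60. Foxe1, the targeted gene, was at 7.60, 7.19 and 7.04 on the control arrays and at 3.33, 2.88 and 3.04 on the knockout arrays (difference -4.19, SE 0.22, limma adjusted p = 0.000442), lower wherever the label says knockout. The follicular cell gene for thyroglobulin, Tg, read between 18.67 and 19.27 on all 6 arrays. Y-linked genes read low on control 1 and knockout 3 (Uty at 3.38 and 2.77, against 8.76 to 9.47 on the other arrays), 1 array of each genotype.

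Parathyroid glands are small endocrine bodies that lie on or beside the thyroid. Their chief cells sense blood calcium through the calcium-sensing receptor, Casr, and secrete parathyroid hormone, Pth, from dense-core granules rich in chromogranin A, Chga. C cells lie between the thyroid follicles, secrete calcitonin and express the receptor tyrosine kinase Ret. Granins (Chga, Chgb, Scg2, Scg3 and Scg5) are acidic proteins of such granules, where prohormones are cut by convertases such as Pcsk1. Scg5, also called 7B2, is a chaperone of the convertase Pcsk2. In RNA of a whole lobe, fewer cells of a type and less RNA per cell cannot be told apart.

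RefSeq promoter sequences (GRCm38.p6) were matched for 8 of the 10 members, all but Calcb and Ret. The upstream bases are shown because Pth, Casr and Chga had nearly the same order of animals and Scg5 another, and because the cAMP response element is a known feature of granin and convertase promoters. Sequences run 5′ to 3′ and end at the base before the annotated start, with 250 bases for Pth, Casr, Chga and Scg5 and the last 100 bases for Scg2, Chgb and Pcsk1. Capitals mark matches to TGACGT or TGACNTCA on either strand.
Pth (chr7:113388574-113388823, minus strand): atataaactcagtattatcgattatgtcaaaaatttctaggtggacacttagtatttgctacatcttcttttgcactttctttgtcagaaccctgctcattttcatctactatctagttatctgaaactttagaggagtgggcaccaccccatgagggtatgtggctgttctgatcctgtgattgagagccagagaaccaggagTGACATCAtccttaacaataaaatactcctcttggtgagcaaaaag
Casr (chr16:36562135-36562384, minus strand): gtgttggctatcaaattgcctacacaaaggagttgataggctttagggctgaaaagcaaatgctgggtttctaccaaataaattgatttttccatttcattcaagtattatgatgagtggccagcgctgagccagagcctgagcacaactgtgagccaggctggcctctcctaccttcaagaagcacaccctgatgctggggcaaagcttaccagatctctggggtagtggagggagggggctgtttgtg
Chga (chr12:102554691-102554940, plus strand): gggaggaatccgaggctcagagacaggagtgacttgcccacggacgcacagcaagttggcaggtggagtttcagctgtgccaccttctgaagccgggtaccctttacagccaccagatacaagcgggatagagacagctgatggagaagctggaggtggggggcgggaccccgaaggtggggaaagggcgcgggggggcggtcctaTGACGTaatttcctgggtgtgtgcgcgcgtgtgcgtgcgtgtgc
Scg5 (chr2:113829092-113829341, minus strand): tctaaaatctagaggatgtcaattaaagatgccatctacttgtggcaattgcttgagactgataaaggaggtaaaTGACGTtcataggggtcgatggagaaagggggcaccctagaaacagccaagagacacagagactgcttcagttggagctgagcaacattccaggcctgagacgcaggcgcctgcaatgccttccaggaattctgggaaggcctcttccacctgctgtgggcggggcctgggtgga
Scg2 (chr1:79440027-79440126, minus strand): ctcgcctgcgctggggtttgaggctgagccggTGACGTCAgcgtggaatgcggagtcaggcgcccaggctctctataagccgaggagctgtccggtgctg
Chgb (chr2:132781542-132781641, plus strand): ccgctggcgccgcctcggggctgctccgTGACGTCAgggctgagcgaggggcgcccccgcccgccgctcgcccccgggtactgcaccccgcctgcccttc
Pcsk1 (chr13:75089757-75089856, plus strand): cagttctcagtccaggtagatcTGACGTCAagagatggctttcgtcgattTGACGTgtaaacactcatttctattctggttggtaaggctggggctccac
The full element TGACGTCA, which also contains TGACGT and matches TGACNTCA, was found in 3 of the 8 upstream windows. It began 68 bases before the start in Scg2, 72 in Chgb and 78 in Pcsk1. Of all 32851 RefSeq windows of 250 bases, several per gene where a gene has several starts, 1.55% held it. TGACNTCA was in 4 of the 8 and in 7.49% of all windows, the fourth being Pth, where it began 46 bases before the start. TGACGT was in 5 of the 8 and in 6.47% of all windows, adding Chga at 44 bases and Scg5 at 175 bases before the start. None of these was in the Casr or Scg3 window. The forkhead core TGTTTAC, searched because Foxe1 is a forkhead factor, was in 1 of the 8 (Pcsk1, minus strand, 44 bases before the start) and in 3.17% of all windows. It was not in the Scg5 or Pth window. These motifs were chosen after the sequences had been read, and a match describes letters in a window, not a bound site.

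Pth, Chga and Casr varied widely among animals of the same genotype, and none of the 3 passed the test between genotypes. Pth was at 18.24, 19.68 and 17.02 on the control arrays and at 3.56, 18.61 and 10.06 on the knockout arrays. Knockout 2 was within the range of the controls, knockout 3 was lower, and knockout 1 stood at percentile 26.2 of its own array. The groups overlap, and the difference, knockout minus control, was -7.57 (SE 3.00, limma adjusted p = 0.335). It was -3.98 without knockout 1 and -11.50 without knockout 2. Over the 22206 probe sets Pth had the largest SD across the 6 arrays (6.38, rank 1, where the median probe set had 0.29). It was also rank 1 for the SD within genotypes (5.42, against a median of 0.28 over all probe sets).

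Chga and Casr had the same order of animals, close to that of Pth. Chga, the granule core protein, was at 15.74, 17.63 and 13.15 on the control arrays and at 5.85, 15.16 and 6.95 on the knockout arrays. Here too knockout 2 was inside the control range and knockouts 1 and 3 were far below it. The difference was -6.19 (SE 2.18, adjusted p = 0.277), and its SD over the 6 arrays ranked 2 of all probe sets (4.88). Casr, the calcium sensor of the chief cell, was at 11.03, 13.49 and 9.56 on the control arrays and at 8.44, 10.53 and 9.05 on the knockout arrays. Its arrays spread over less of the scale than those of Chga, and the groups overlap again through knockout 2. The difference was -2.02 (SE 0.90, adjusted p = 0.395), or -0.96 without control 2, and its SD over the arrays was 1.81 (rank 43). In both genes the order from high to low was control 2, control 1, knockout 2, control 3, knockout 3 and knockout 1. Pth differed from this order in knockout 2, which stood above control 1.

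**Figure D1:**
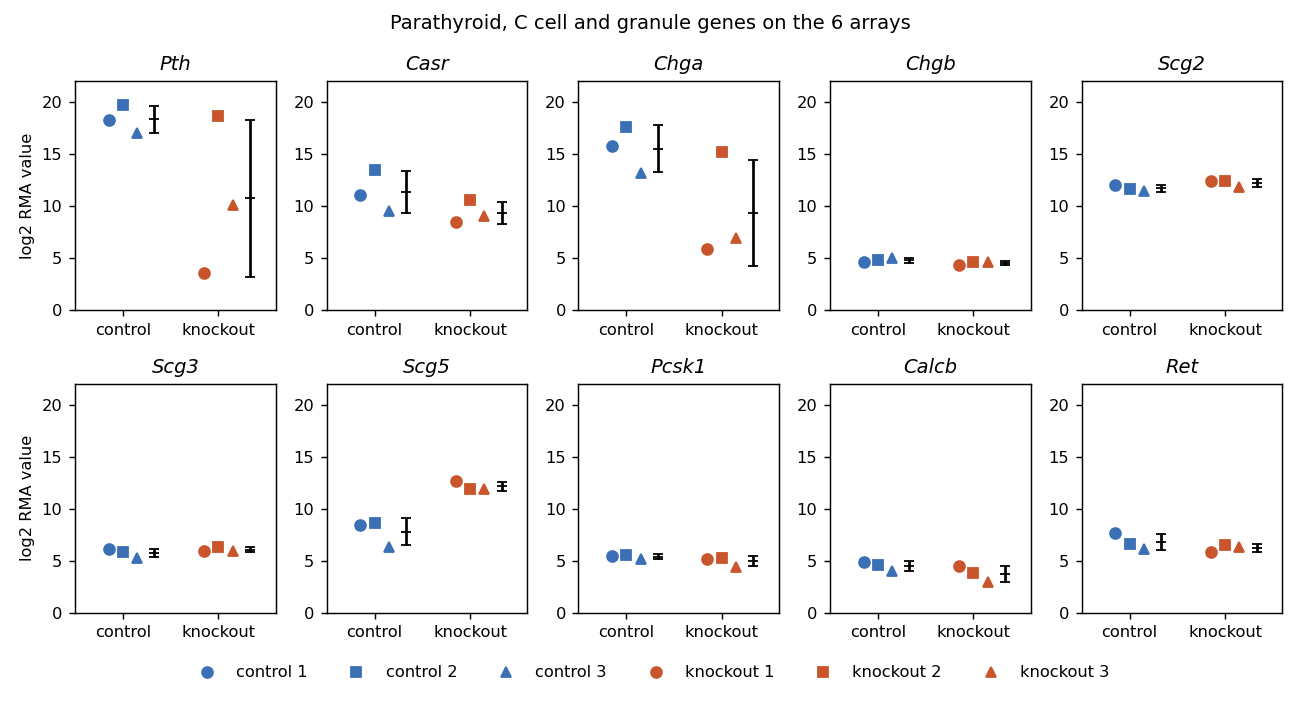
Log2 RMA values of the 10 genes (vertical axis, the same in all panels) in control and knockout lobes, 1 point per array with the mean and SD of 3 arrays beside each group. Pth, Casr and Chga spread widely with knockout 2 among the controls, Scg5 is higher on all 3 knockout arrays, and the other 6 genes lie close together.

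Scg5 was the member that differed between the genotypes. It was at 8.41, 8.62 and 6.28 on the control arrays and at 12.61, 11.88 and 11.91 on the knockout arrays. The lowest knockout stood above the highest control, and control 3 was the lowest array. Scg5 rose from 7.77 ± 1.29 to 12.13 ± 0.41 (SD, n = 3 each), by 4.36 (SE 0.56, 95% interval 3.10 to 5.63, adjusted p = 0.0269), a 20.6-fold difference. Over all probe sets 0.338% passed this threshold in either direction and 0.252% passed it upward. Of the 10 members 1 passed, and none passed downward, as 0.0856% of all probe sets did. An unadjusted p under 0.05 was found for 3 members (Scg5, Chga and Pth) and for 12.7% of all probe sets. Scg5 was also the 1 member whose groups did not overlap. Among all probe sets 18.1% had groups that did not overlap, and 9.28% had the knockouts on top. The size of the difference was kept without any single array (3.62 to 4.79), but the call was lost without control 2 (adjusted p = 0.0631), knockout 1 (0.105), knockout 2 (0.0785) or knockout 3 (0.0939). It held without control 1 (0.0439) or control 3 (0.0127).

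The remaining granins and the convertase showed small differences of either sign, none past the threshold. Scg2, secretogranin II and the precursor of secretoneurin, was at 12.03, 11.67 and 11.40 on the control arrays and at 12.39, 12.42 and 11.78 on the knockout arrays. The values overlap in knockout 3 (0.50, 95% interval -0.07 to 1.06, adjusted p = 0.457). Scg3, which binds granule membranes and Chga, read 6.12, 5.83 and 5.29 against 5.91, 6.32 and 5.95 (0.31, interval -0.25 to 0.88, adjusted p = 0.665). Chgb, chromogranin B, read 4.59, 4.77 and 5.03 against 4.32, 4.63 and 4.64, the narrowest spread among the members with an SD of 0.23 over the 6 arrays (-0.27, interval -0.72 to 0.19, adjusted p = 0.644). Pcsk1, the convertase, read 5.48, 5.54 and 5.14 against 5.20, 5.28 and 4.43 (-0.42, interval -1.01 to 0.18, adjusted p = 0.563). Its lowest array was knockout 3, without which the difference was -0.15, and the groups overlap. The upper ends of the intervals of all these genes (95%, unadjusted) lie below the lower end of that for Scg5. A test of the difference between genes was not made.

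The C cell members Ret and Calcb had lower means in the knockouts, also without a call. Ret, the receptor for ligands of the glial cell line-derived family, was at 7.64, 6.64 and 6.11 on the control arrays and at 5.82, 6.52 and 6.29 on the knockout arrays (-0.59, interval -1.43 to 0.26, adjusted p = 0.569). Control 1 was its highest array, and without it the difference was -0.16. Calcb, the gene of the beta form of calcitonin gene-related peptide, read 4.92, 4.58 and 3.99 against 4.48, 3.79 and 2.96 (-0.75, interval -1.63 to 0.13, adjusted p = 0.469). Its lowest array, knockout 3, stood at percentile 10.4 of its array, and without it the difference was -0.36. Of 14 C cell markers listed, 11 were matched, and the others were not analysed here. None of the 11 passed the threshold, with 3 positive and 8 negative differences and a median of -0.33, where the median of all probe sets was -0.02. Foxa1, a forkhead factor shared by C cells and airway epithelium, had the smallest p of this list (8.41 ± 0.21 against 7.34 ± 0.21, SD, n = 3 each, difference -1.07, adjusted p = 0.0737). Sst went the other way (0.58, limma adjusted p = 0.422).

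**Figure D2:**
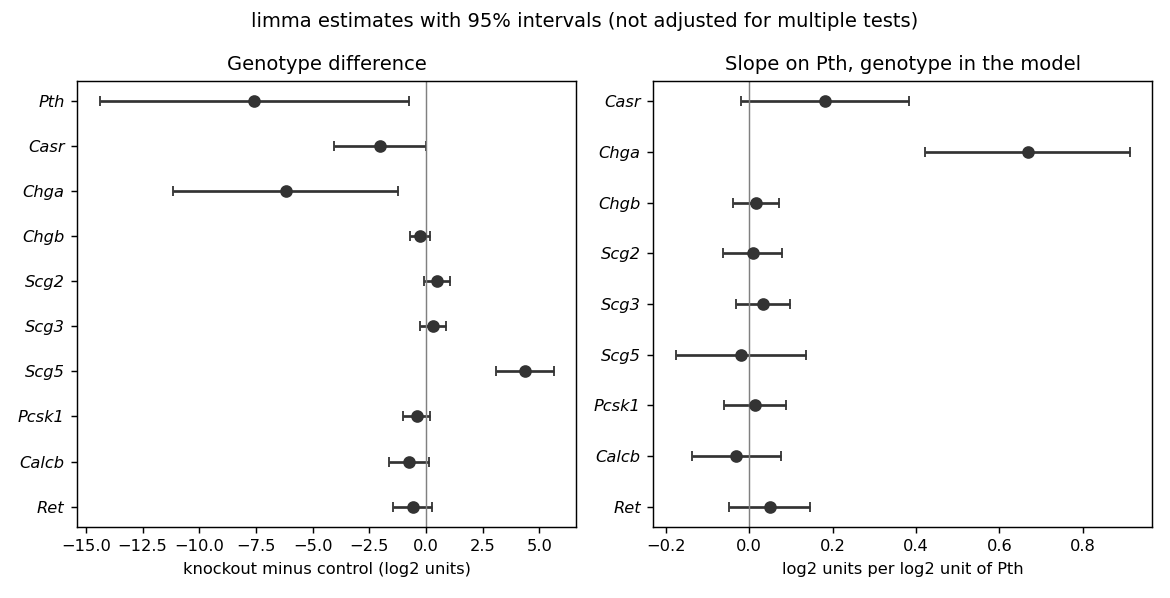
Left, knockout minus control difference of each gene on the log2 scale; right, slope of each gene on Pth in a model that holds genotype constant, in log2 units per log2 unit of Pth. Points are limma estimates from 6 arrays and bars are unadjusted 95% intervals. The Scg5 difference (4.36) and the Chga slope (0.67) stand away from the other intervals.

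To ask which genes follow Pth, each member was set against Pth over the 6 arrays. Chga had a Pearson r of 0.95 (two-sided exact permutation p = 0.00278 over 720 pairings, n = 6) and a Spearman rho of 0.94 (exact p = 0.0167). Casr had a Pearson r of 0.77 (exact permutation p = 0.0694) and the same rho of 0.94 (exact p = 0.0167). These were 2 of 9 such correlations, for genes chosen with results of these arrays already known, so the p-values are no independent support. The permutations moved all 6 arrays freely across both genotypes, so these p-values do not hold genotype constant. The arrays farthest from the median of Pth were knockouts 1 and 3. Without them r over the 4 arrays left was 0.96 for Chga and 0.92 for Casr. Taken as deviations from the genotype means, r was 0.92 for Chga and 0.62 for Casr, and the sources used here name no batch. Such an r with Pth rests mainly on knockouts 1 and 2, where Pth lay farthest from its genotype mean.

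The other 7 members had a lower r with Pth over the 6 arrays. Chgb had an r of 0.66 (exact permutation p = 0.193), which became -0.55 without the 2 arrays named. Ret had 0.62 (exact p = 0.178), with 0.26 without them, and Pcsk1 had 0.50 (exact p = 0.287), with 0.82 without them. Spearman rho was 0.77 for both Ret and Pcsk1 (exact permutation p = 0.103 each), against 0.94 for Chga and Casr. Without knockout 1 alone, r was 0.98 for Pcsk1 and 0.38 for Ret, against 0.99 for Chga and 0.72 for Casr. For Calcb r was 0.22 (exact p = 0.617), but 0.83 without knockout 1 and -0.11 without knockout 3. For Scg3 it was 0.03 (exact p = 0.943), with 0.55 without the 2 arrays and 0.53 over deviations from the genotype means. Scg2 had an r of -0.36 (exact p = 0.494), with 0.33 without the 2 arrays, and Scg5 one of -0.64 (exact p = 0.186). For Scg5 r was -0.11 over deviations from the genotype means, and without knockouts 1 and 3 it was 0.52. Scg5 read 12.61 where Pth was at 3.56 and 11.88 where Pth was at 18.61, both in knockouts.

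**Figure D3:**
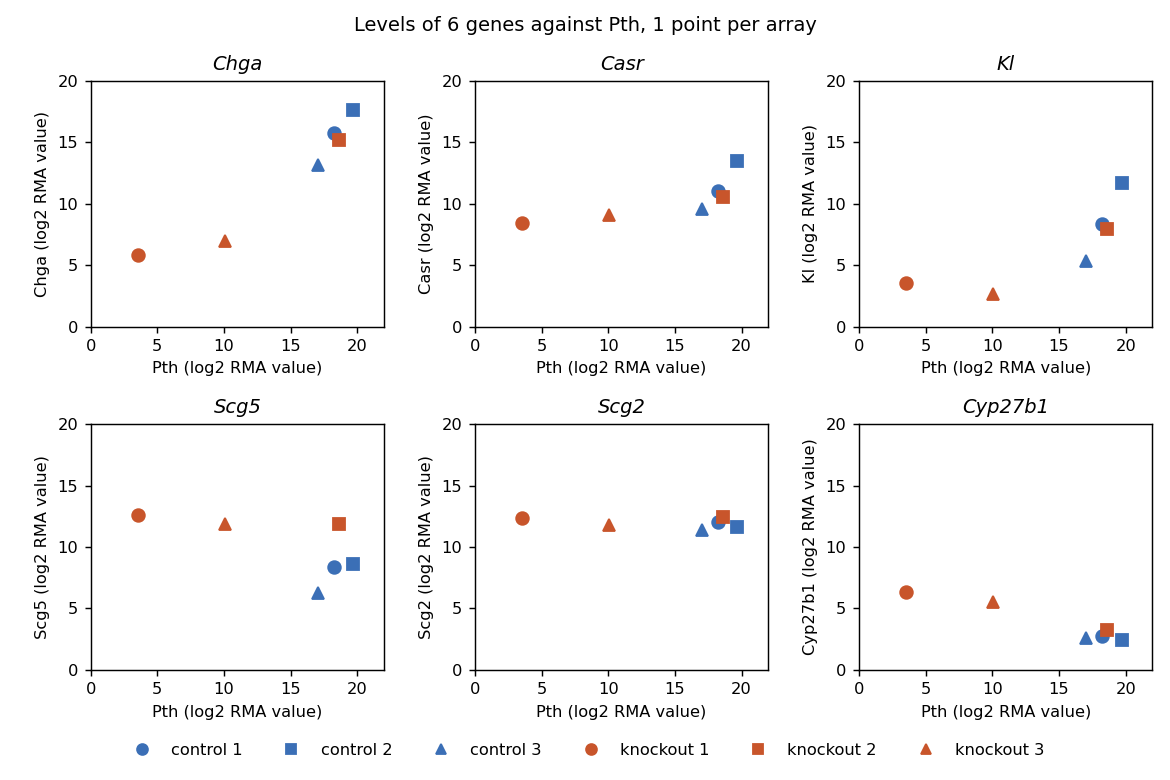
Log2 RMA value of Chga, Casr, Kl, Scg5, Scg2 and Cyp27b1 (vertical axes) against that of Pth (horizontal axes), 1 point per array, coloured by genotype. Chga, Casr and Kl are highest where Pth is highest, Scg5 is higher on all 3 knockout arrays, with 1 of them (knockout 2) inside the Pth range of the controls, and Cyp27b1 is highest on the 2 arrays with the lowest Pth.

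A fit over all probe sets with genotype and the Pth level as terms gave the slope of each gene on Pth. Chga had a slope of 0.67 log2 units per unit of Pth (SE 0.11, 95% interval 0.42 to 0.91, unadjusted p = 0.000277), the second smallest p of 22205 probe sets. After adjustment over all of them it did not pass (adjusted p = 1.00), and no probe set did by limma (0 of 22205). Without adjustment, p was under 0.05 for 467 probe sets, 2.1% of those tested (1.01% with a positive slope), and for 1 of 9 members, Chga. The share called after adjustment was 0%. With 6 arrays and 2 terms, 3 residual degrees of freedom remain. Pth ranged over 2.66 among the controls and over 15.05 among the knockouts, from 3.56 on knockout 1 to 18.61 on knockout 2. With genotype held constant, every slope therefore rests mostly on the contrast of knockout 1 with knockout 2, not on a trend over all arrays. Casr had a slope of 0.18 (SE 0.09, interval -0.02 to 0.38, unadjusted p = 0.0718). The slopes of Chgb (0.02), Scg2 (0.01), Scg3 (0.03), Pcsk1 (0.01), Ret (0.05), Calcb (-0.03) and Scg5 (-0.02) had intervals that contain 0. The upper ends of these 7 intervals were at most 0.15 and lie below the lower end for Chga. The Chga slope was 1.02 without knockout 1 and 0.39 without knockout 2.

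With Pth in the model, the genotype difference of Chga was -1.13 (SE 1.23) in place of -6.19, and that of Casr was -0.65 (SE 1.01) in place of -2.02. That of Scg5 was 4.22 (SE 0.78) in place of 4.36, with an adjusted p of 0.267 in a fit where 1 probe set passed over all. The call of Scg5 was lost in that fit, at nearly the same size of difference.

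Among themselves the members made 45 pairs, of which 1 had an r of at least 0.9 over the 6 arrays, Pth with Chga. Chga and Casr had an r of 0.87. Scg2 and Scg3 had 0.80. With Scg5, r over the 6 arrays was highest for Scg2 (0.78) and Scg3 (0.66) and lowest for Chgb (-0.81). Over deviations from the genotype means this order did not hold. Scg5 then had 0.68 with Scg3, 0.66 with Calcb, 0.59 with Casr, 0.58 with Scg2, 0.51 with Pcsk1, 0.49 with Ret and -0.84 with Chgb. Its values with Calcb, Casr, Pcsk1 and Ret had been negative over the 6 arrays (-0.37, -0.42, -0.40 and -0.34). Scg3 with Ret (0.91) and Scg2 with Calcb and with Pcsk1 (0.89 each) were also high over deviations, above Chga with Casr (0.77). Pcsk1 and Calcb had an r of 0.899 over the 6 arrays and 0.85 over deviations, and both were lowest on knockout 3. All of these are descriptions over 6 arrays that share their RMA normalization.

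**Figure D4:**
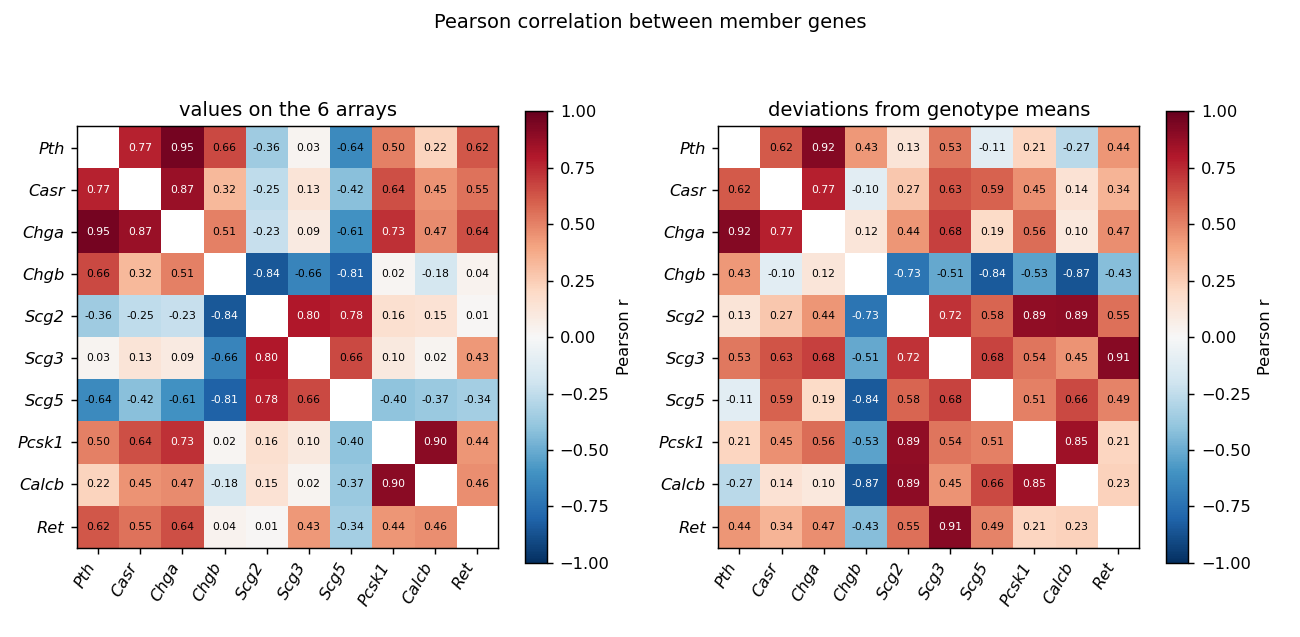
Pearson r for the 45 pairs of the 10 genes over the 6 arrays, from the values (left) and from their deviations from the genotype means (right), blue for negative and red for positive. Among Pth, Casr and Chga r is 0.77 to 0.95 on the left and 0.62 to 0.92 on the right. Other pairs are also high on the right, such as Scg3 with Ret (0.91). Scg5 is negative with all 3 of Pth, Casr and Chga only in the left panel.

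The genes most like Pth were sought among 305 named probe sets whose SD over the arrays was at least 1. Chga came first. It was followed by Ucp1, the uncoupling protein of brown fat (r = 0.88), Cdc42se2 (0.84), Npnt (0.84), the ammonium transporter gene Rhcg (0.83), Tspan6 (0.81), Kl (0.80) and Pcyt1b (0.78). Ucp1 was at 14.57, 11.84 and 12.31 on the control arrays and at 8.26, 13.83 and 10.91 on the knockout arrays, so it shared the low knockouts 1 and 3 but was highest on control 1. Kl, the co-receptor klotho of parathyroid and kidney, was at 8.33, 11.67 and 5.35 on the control arrays and at 3.54, 7.95 and 2.68 on the knockout arrays. Its order over the controls and knockout 2 matched that of Chga and Casr. Knockouts 1 and 3 stood near or below the lower quartile and have no order. Its slope on Pth was 0.37 (SE 0.15, unadjusted p = 0.0396, adjusted p = 1.00). Over all 22205 other probe sets, whatever their SD, 107 had an r of at least 0.9 with Pth and 113 had one of -0.9 or less.

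More genes resembled Scg5 than Pth. Among the same 305 probe sets, 44 had an r of at least 0.9 with Scg5 and 1 with Pth. Over all 22205 other probe sets, whatever their SD, the counts were 353 with Scg5 and 107 with Pth. An r of -0.9 or less was found for 285 with Scg5 and 113 with Pth. The groups of Scg5 did not overlap, nor did those of 18.1% of all probe sets, and such probe sets tend to correlate with one another. The higher counts with Scg5 are therefore no separate finding. Among the 305, the closest to Scg5 was Napsa, which encodes the aspartic peptidase napsin A (r = 0.998). Napsa was at 11.67, 11.46 and 9.71 on the control arrays and at 15.25, 14.75 and 14.66 on the knockout arrays, with control 3 lowest and knockout 1 highest as for Scg5. AU021092 and the glutathione transferase gene Gstt2 followed (0.99 each), then Igsf5, the folate receptor gene Folr1 and the potassium channel gene Kcnk1 (0.99 each) and Fxyd4 and Iqgap2 (0.98 each). All 8 had the 3 knockouts above the 3 controls, as 9.28% of all probe sets did. Napsa (limma adjusted p = 0.025) and Kcnk1 (limma adjusted p = 0.0445) passed the threshold between genotypes, as 0.252% of all probe sets did upward. The slopes of the 8 on Pth lay between -0.03 and 0.02. They were picked for their r with Scg5, whose groups do not overlap, so these traits follow largely from the selection.

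**Figure D5:**
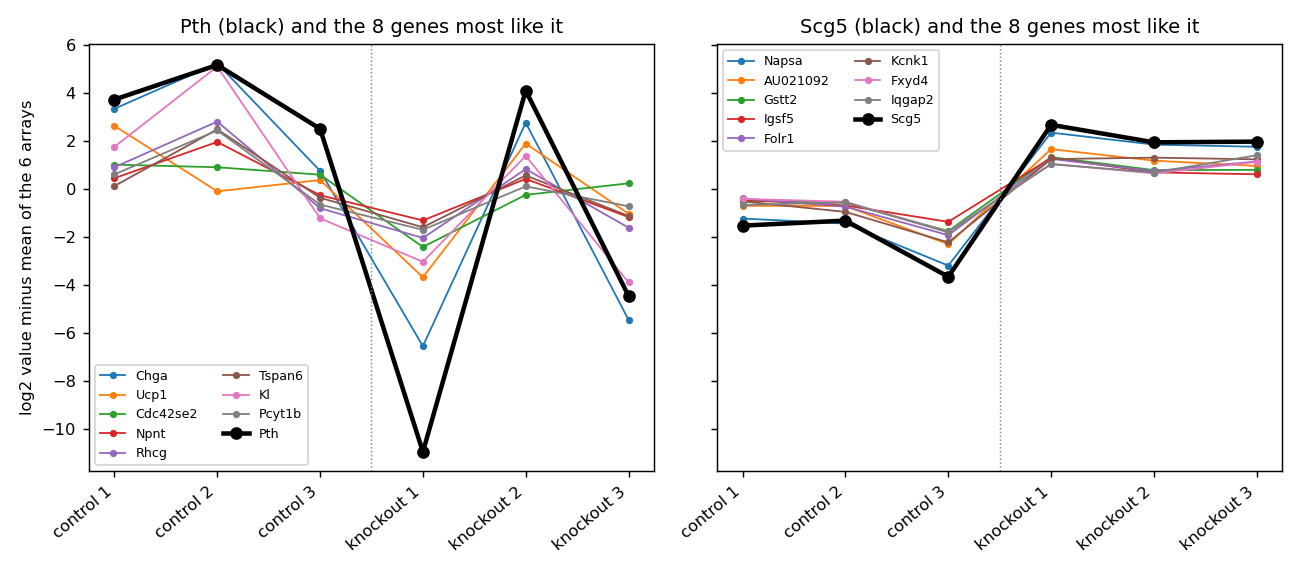
Log2 value minus the gene's mean over the 6 arrays, for Pth and the 8 genes most like it (left) and for Scg5 and the 8 genes most like it (right), in black for Pth and Scg5. In the Pth panel Pth itself is lowest on knockouts 1 and 3 and all 8 genes are low on knockout 1, while Cdc42se2 is lower on knockout 2 than on knockout 3; in the Scg5 panel the 3 knockouts lie above the controls with control 3 lowest.

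Beyond the members, the parathyroid list held no gene past the threshold. Of 13 genes listed 9 were matched, and the rest were not analysed here. Of the 9 differences 1 was positive and 8 were negative (median -1.06). An unadjusted limma p under 0.05 was found for 3 genes, Eya1 and the members Pth and Chga, and for 12.7% of all probe sets. The mean level of the list lay between 9.56 and 11.66 on the control arrays and between 6.83 and 10.32 on the knockout arrays, and Pth, Casr and Chga are in it. Eya1, a developmental regulator of the pharyngeal glands, read 10.54, 10.86 and 10.75 against 9.92, 9.93 and 9.12, with no overlap (-1.06, adjusted p = 0.136) and a slope on Pth of 0.01. Its SD within either genotype was at most 0.46. The developmental factors Tbx1 and Hoxa3 differed by -0.42 and -0.17 (adjusted p = 0.493 and 0.821), with SDs within a genotype of at most 0.36 and 0.40. Vdr, the vitamin D receptor, differed by 0.07. Sox3 stood at or below the lower quartile of every array.

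Beyond Scg5 no gene of the granule lists passed the threshold. Of 11 matched genes of granule cargo and prohormone processing (Pcsk2 was not analysed here), 1 passed upward, Scg5, and none downward, with a median difference of -0.27. Pam, which amidates peptides, differed by -0.73 (adjusted p = 0.269). Cpe, the carboxypeptidase that trims prohormones, read between 9.17 and 9.90 on all arrays. Of 20 genes of granule exocytosis, 0 passed by limma and 1 had an unadjusted p under 0.05, Syp, the synaptophysin gene (-0.57, adjusted p = 0.309). Over all probe sets 12.7% had such an unadjusted p. The median difference of the 20 genes was -0.10 and their median slope on Pth 0.01. Syt4, Stx1a and Rph3a stood at or below the lower quartile of every array.

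Among 10 genes of calcium sensing and the vitamin D response, Cyp27b1 had the smallest p for a slope on Pth, read from few arrays with signal. It encodes the 1-alpha-hydroxylase that makes active vitamin D. It was at 2.76, 2.44 and 2.56 on the control arrays and at 6.33, 3.25 and 5.51 on the knockout arrays. The 3 controls and knockout 2 stood below the lower quartile of the arrays, so their levels have no order and the estimates rest on knockouts 1 and 3. The difference was 2.44 (SE 0.65, adjusted p = 0.162) and the slope on Pth was -0.20 (SE 0.03, unadjusted p = 0.000103), the smallest p of the 22205, at an adjusted p of 1.00. Gnas, Ramp1 and Ramp2 differed by -0.80, -0.76 and -0.85 (adjusted p of 0.261, 0.264 and 0.317). None of the 10 passed.

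Marker genes of other tissues in or near the lobe were read on the same arrays. The mean level of 9 matched thyroid follicular genes lay between 7.63 and 9.26 in the controls, lowest in control 3, and between 10.16 and 10.46 in the knockouts. All 9 differences were positive, 1 passed (Hhex, 2.46, adjusted p = 0.0273), and control 3 was also the lowest array of Scg5. The mean of 8 airway genes lay between 14.44 and 15.63 in the controls and between 13.80 and 13.81 in the knockouts, with all 8 negative and none called. The 9 skeletal muscle genes lay between 16.37 and 16.46 and between 15.13 and 15.95, all negative and none called. Adipocyte genes (5 matched) lay between 10.36 and 11.48 and between 10.30 and 10.47. Their part in the Scg5 and Pth results was not tested. Nerve genes (12 matched, means of 4.10 to 4.46 and 4.32 to 4.52) had 7 positive and 5 negative differences, none called. Slc6a2, the noradrenaline transporter, was at 5.20 ± 0.54 against 7.37 ± 1.13 (SD, n = 3 each, limma adjusted p = 0.131). Npy went the other way (-0.93, limma adjusted p = 0.268). Th and Dbh, which make noradrenaline, stood between 3.56 and 4.39 and between 2.89 and 3.97. Dbh lay between percentiles 9.59 and 32.7 of the arrays. Schwann cell genes (4 matched) had S100b at 1.02 (adjusted p = 0.0956) and Mbp at -1.33 (adjusted p = 0.183). Thymus genes (7 matched) and lymphocyte genes (6 matched) had means between 4.50 and 4.74 and between 3.29 and 3.57, and none was called. In the thymus list Foxn1 differed by 0.93 (adjusted p = 0.182). In the lymphocyte list Cd3g had a slope on Pth of 0.12 (unadjusted p = 0.00145, adjusted p = 1.00). Cd3g read between 2.41 and 4.07, at percentiles 0.901 to 34.3 of the arrays, so this slope comes from levels around the lower quartile.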

How the data were processed

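Total RNA of 1 lobe per mouse was labelled from 250 ng with a whole-transcript kit after a minimum integrity number of 7, per the labels' protocols. The authors deposited a log2 table of probe sets, and the submitters' processing notes name RMA and Affymetrix Expression Console. That the scale is log2 follows from the range of the values, and RMA settings and versions were not given in the sources. RMA equalises the arrays, so a change shared by most transcripts is removed, and no detection calls were used. Probe sets were named by the platform annotation and updated to RefSeq symbols of GRCm38.p6 (19572 of 22206 had 1 symbol, 2634 none).

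All probe sets were fitted with limma 3.58.1 in R 4.3.3 (lmFit, eBayes, two-sided, Benjamini-Hochberg over all, threshold 0.05), once with genotype and once with genotype and Pth. These fits were tested on simulated data with independent normal noise, a setting that need not match these arrays. Exact permutation p-values of correlations used SciPy 1.17.1, and the planned adjustment over the 9 members is not given. Figures used matplotlib 3.10.9. Precision is limited by having 3 arrays per group. Nothing says whether mice shared a litter or cage. The limma p-values set each estimate against the residual spread between these arrays, moderated over all probe sets fitted.

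The members and gene lists were chosen with earlier results of these data known. Named genes were Foxe1, the members, up to 4 genes per list by smallest p, and the 8 genes most correlated with Pth and with Scg5 at an SD of at least 1. Other list genes were named after their values were seen. Alternatives tried were array weights, a variance trend (alone or with robust fitting), centring each array, quantile normalization once more, a filter on dim probe sets, a threshold of 0.1, the replicate number as a block, Casr in place of Pth, Pth without genotype, and leaving out each array.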

Additional observations from a re-analysis of the deposited data

How the results depend on the processing

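The count of 75 probe sets past the threshold between genotypes was 118 with a variance trend and robust fitting, 260 at an adjusted p under 0.1, 1 with Pth as a covariate, and 2 (without knockout 1) to 43 (without control 1) without single arrays. Foxe1 kept its call in every alternative run for it. The count of members past the threshold, 1 (Scg5), was 0 with Pth as a covariate, where Scg5 stood at 4.22 (adjusted p = 0.267), and the count was 0 to 1 without single arrays. Over all 146 refits of the member differences, 141 kept direction and side of the threshold, 5 lost the call of Scg5 and none turned. No slope on Pth passed in any fit. Of the refits of member slopes 111 kept their sign and 11 turned, none of them called: with Casr in place of Pth, Chgb was at -0.013, Scg5 at 0.35 and Calcb at 0.056; with Pth alone, Scg2 was at -0.023 and Calcb at 0.024; without single arrays the lowest and highest slopes were -0.0091 and 0.029 for Chgb, -0.067 and 0.076 for Scg2, -0.044 and 0.073 for Scg5, -0.080 and 0.10 for Pcsk1 and -0.17 and 0.11 for Calcb. The cause was not tested.

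Replicate numbers are shared by both groups, but same-numbered arrays had correlated deviations of -0.01, 0.08 and 0.02, so the numbers were not taken as pairs. Not every array correlated best with its own number. With the replicate block 63 probe sets passed, 1 of them a member, Scg5 (adjusted p = 0.0258). Each gene had 1 probe set, so averaging probe sets gave no other value. Values near or below an array's lower quartile, such as Pth on knockout 1 and Calcb on knockout 3, limit how low a level can be read.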
